A study of Homo sapiens with 4 samples.

Results

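Cohesin-associated chromatin contacts were examined around DLX5 and DLX6 on chromosome 7. The contacts are all anchor pairs with at least 1 anchor midpoint in the window chr7:95700000-96900000 (hg19). There were 595 such pairs among 720049 listed in either table. The window spans 1.2 Mb and holds 18 of 39507 anchors. DLX6 and DLX5 occupy about 96635000 to 96654500, an interval of 19.5 kb. The members were selected on position, in a window chosen by their paired-end tag (PET) counts in these same tables, and a pair is listed only if it has at least 1 PET. The presence and number of contacts are therefore descriptions and not tests. The window has no threshold on PETs, only edges, and the difference between the tables is not part of the rule.

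Kelly is a neuroblastoma cell line, and the cells here had become resistant to TAE684, which inhibits the kinase ALK, and were kept in 1 µM of it. One group received a viral construct with a short hairpin against BORIS (shBORIS) and the other the control construct shLUC. Infection lasted 24 h and puromycin selection 48 h, with 2 libraries per group. BORIS, also called CTCFL, is a germ-line paralog of the insulator protein CTCF that recognises the same DNA motif. Cohesin, of which SMC1 is a subunit, extrudes chromatin loops that often stop at CTCF sites. ChIA-PET ligates DNA ends held together by the precipitated protein, and each PET records 1 such joined fragment. Each group's libraries are pooled in 1 table, so no value carries a replicate error and every test compares 2 pools of libraries, not the conditions. Intrachromosomal PETs numbered 163041 in the shBORIS table and 146140 in that of shLUC. The level of BORIS was not analysed here.

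DLX5 and DLX6 encode homeodomain transcription factors of the Distal-less family and are transcribed towards each other. They act in the development of the limbs, the jaw, the inner ear and the GABAergic neurons of the ventral forebrain. Enhancers that drive them are spread over a long gene-poor stretch, including sequences within the neighbouring genes SEM1 and DYNC1I1, and rearrangements there are known from split hand/foot malformation. In the RefSeq gene table (GRCh38.p14) the order along chromosome 7 is DYNC1I1, SLC25A13, SEM1, DLX6-AS1, DLX6, DLX5 and SDHAF3, so that DYNC1I1, SLC25A13 and SEM1 lie on the side called left here. Positions of those neighbours were not converted to hg19, and no anchor outside the DLX6 to DLX5 interval is assigned to a gene.

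The RefSeq sequences before the starts of DLX6 and of the antisense transcript DLX6-AS1, which begins between both genes, are shown because SMC1 anchors cover this interval and BORIS and CTCF bind a shared motif. DLX5 was named only. Each has 250 bases, from 5′ to 3′ on the strand of its gene, and capitals mark matches to a motif. The DLX6 sequence lies at chr7:97005303-97005552 on the + strand and that of DLX6-AS1 at chr7:97014066-97014315 on the − strand, both in GRCh38.p14 and not in the build of the anchors.
DLX6: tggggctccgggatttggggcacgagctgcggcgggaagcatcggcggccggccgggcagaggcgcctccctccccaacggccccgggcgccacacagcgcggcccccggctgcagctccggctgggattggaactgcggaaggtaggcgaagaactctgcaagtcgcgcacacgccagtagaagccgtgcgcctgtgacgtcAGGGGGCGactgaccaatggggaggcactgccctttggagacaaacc
DLX6-AS1: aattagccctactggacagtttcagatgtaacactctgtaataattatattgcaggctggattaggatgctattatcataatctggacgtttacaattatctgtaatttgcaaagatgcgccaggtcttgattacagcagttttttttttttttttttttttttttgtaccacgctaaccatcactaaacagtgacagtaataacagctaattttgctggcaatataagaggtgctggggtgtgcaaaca
The DLX6 sequence was 70.0% G and C with 25 CpG dinucleotides, and that of DLX6-AS1 was 35.2% G and C with 3. A core of the CTCF motif (CCA, 2 free bases, AG, 2 free bases and GGC) was searched on both strands and was in neither sequence. Of 35116 promoter windows of that length in the table, 2.02% held it. The shorter AGGGGGCG, chosen after the DLX6 sequence was read and searched on both strands, was found once in DLX6 and not in DLX6-AS1, while 7.82% of all windows held it.

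The anchors were named by their place. Over the DLX6 to DLX5 interval lay 3 anchors. The DLX6-side anchor at 96634351-96636387 covered the left end of the interval, the middle anchor lay at 96645229-96646823, and the DLX5-side anchor at 96652405-96654892 covered the right end. A flanking anchor at 96656075-96657784 began 1.57 kb beyond the interval. Left of the genes were 10 anchors. The outermost, called far-left, lay at 95704169-95706045, 929 kb from the interval, and 3 neighbours between 96299306 and 96307021 are called the left cluster. Right of the flanking anchor were 4, the outermost at 96808470-96809383. Between the anchor at 96338367-96339576 and the DLX6-side anchor a gap of 294.8 kb held none. The window held as many anchors as the median of 1676 tiles of the same width, 18.

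Of 153 possible pairs of these anchors, 47 had a PET and 106 had none. In shBORIS 46 PETs lay on 24 pairs and in shLUC 59 PETs on 33 pairs, and 10 pairs were listed in both. The share of all intrachromosomal pairs listed in both was not computed. Single PETs, which can be listed in 1 table only, made up 27 of the 47 pairs. That is 57.4%, as it was for all pairs spanning under 1.2 Mb. Only 1 pair, or 2.13%, reached 10 PETs over both tables, against 3.67% of all pairs spanning under 1.2 Mb.

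**Figure D1:**
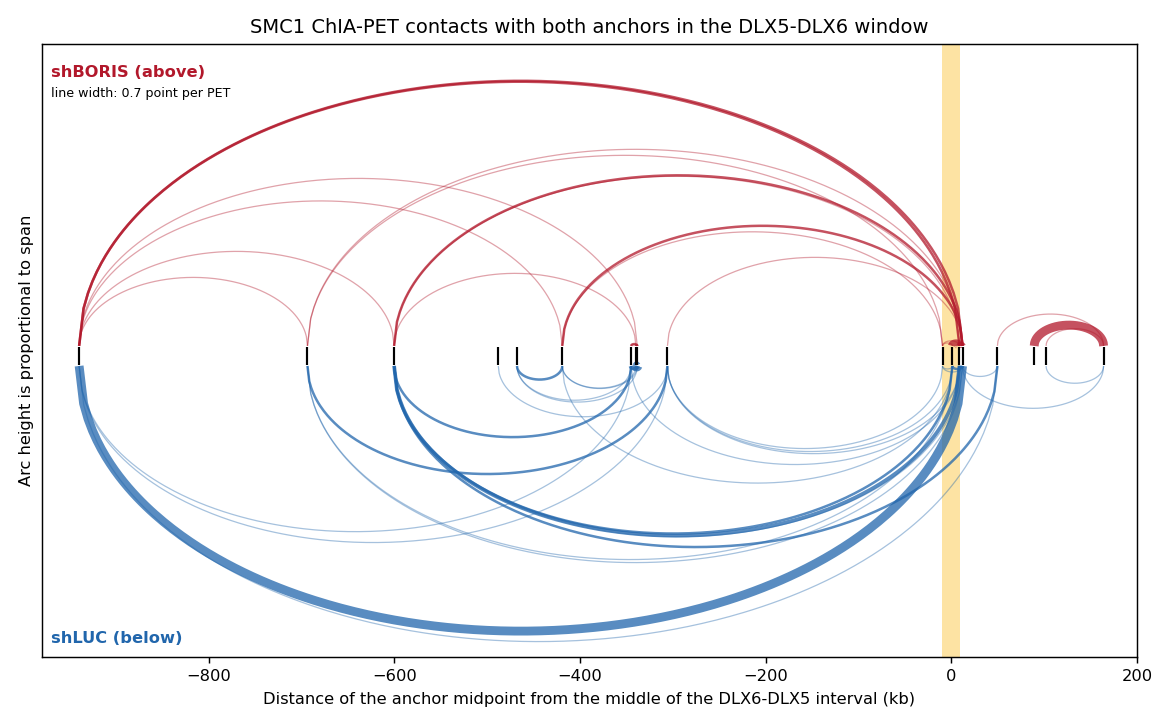
Each arc joins 2 anchors of the window, with shBORIS above and shLUC below; the horizontal axis gives kb from the middle of the DLX6-DLX5 interval (shaded), black ticks are anchors, and line width is proportional to PETs. The widest long arc joins the far-left anchor to the flanking anchor, with 2 PETs in shBORIS and 7 in shLUC, and the widest arc right of the genes has 7 PETs in shBORIS and 0 in shLUC.

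Across more than 500 kb the window held more PETs than the genome-wide mean. At that span there were 11 PETs in shBORIS and 20 in shLUC, on 14 pairs. The mean of all anchor pairs of the genome at the same distances would give 1.11 PETs in shBORIS and 1.00 in shLUC. Observed over expected was thus 9.92 in shBORIS (exact 95% Poisson interval 4.95 to 17.8) and 19.9 in shLUC (12.2 to 30.8). With the expectation also scaled by the anchors' interchromosomal PETs, a measure of their coverage, the ratio over both tables was 15.0 (10.2 to 21.4). Of the 1676 tiles, 25 held more PETs over 500 kb than this window, whose sum of 31 compares with a median of 2. The tiles were placed so that the window is 1 of them. Because the window was chosen by PET counts in these same data, its rank and these ratios are descriptions and not tests. All intervals cover counting error only.

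At shorter spans observed over expected was closer to 1 than above 500 kb. Scaling the expectation by the anchors' coverage changed it most from 100 to 500 kb and little at the shorter spans. From 20 to 100 kb the window held 8 PETs in shBORIS, 0.600 of expected (0.259 to 1.18), and 7 in shLUC, 0.604 of expected (0.243 to 1.24). From 100 to 500 kb the ratio was 0.851 in shBORIS (0.367 to 1.68) and 1.52 in shLUC (0.808 to 2.59). Under 20 kb each table held 19 PETs, 1.54 times expected in shBORIS (0.926 to 2.40) and 1.802 in shLUC (1.08 to 2.81). With the coverage-scaled expectation the ratio over both tables was 1.75 (1.24 to 2.40) under 20 kb, against 1.66 (1.17 to 2.28) by distance alone. From 20 to 100 kb it was 0.626 (0.350 to 1.03), against 0.602 (0.337 to 0.992) by distance alone. From 100 to 500 kb it was 1.78 (1.10 to 2.72), against 1.17 (0.723 to 1.79) by distance alone. Over all spans observed over expected was 1.27 in shBORIS (0.930 to 1.69) and 1.86 in shLUC (1.42 to 2.40).

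**Figure D2:**
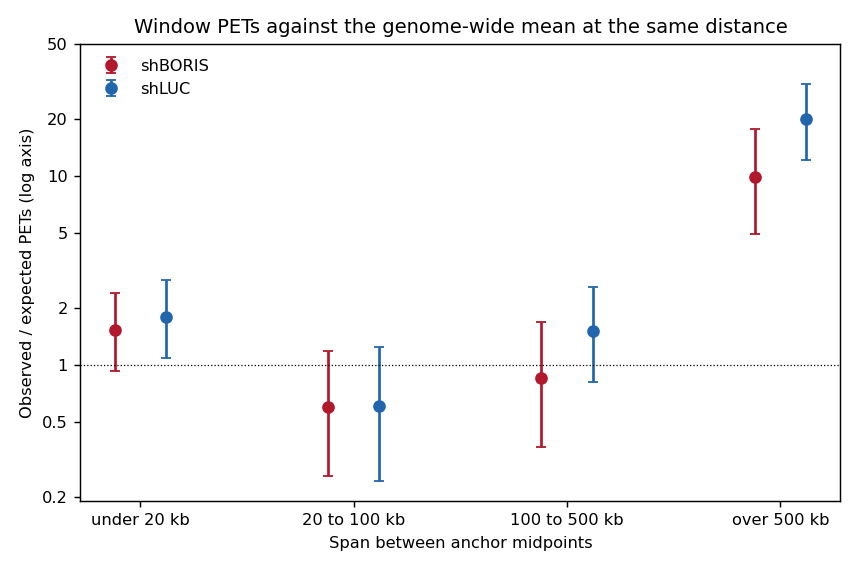
Observed over expected PETs of the window (log axis) by span, shBORIS left of shLUC in each class; points are the ratio to the genome-wide mean at the same distance and bars exact 95% Poisson intervals. Over 500 kb the point of shBORIS stands at 9.92 and that of shLUC at 19.9, while from 20 to 100 kb they lie at 0.600 and 0.604.

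The long contacts divided between the anchors over the genes, the flanking anchor and the rest of the window. Of the 14 pairs over 500 kb, 5 had an end at one of the 3 anchors over the interval, and these carried 4 PETs in shBORIS and 6 in shLUC. A further 3 ended at the flanking anchor, outside the interval, with 5 PETs in shBORIS and 9 in shLUC. The remaining 6 pairs carried 2 in shBORIS and 5 in shLUC. The strongest joined the far-left anchor to the flanking anchor across 952 kb, with 2 PETs in shBORIS and 7 in shLUC. At that distance and coverage 0.0824 PETs were expected over both tables. The authors' deposited tables gave this pair a Bayes probability of 0.915 in shBORIS and 0.999 in shLUC. The same far-left anchor contacted the DLX5-side anchor with 2 PETs in shBORIS and 0 in shLUC. Summed over the 4 anchors at the genes it had 4 PETs in shBORIS and 7 in shLUC.

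A second long-range partner lay at 96043700-96045289, 600.3 kb from the middle of the interval. It contacted the DLX5-side anchor with 1 PET in shBORIS and 3 in shLUC, and the flanking anchor with 2 in shBORIS and 1 in shLUC. Its contact with the middle anchor had 0 PETs in shBORIS and 2 in shLUC. Over the 4 anchors at the genes it had 3 PETs in shBORIS and 6 in shLUC. The anchor at 95950241-95951998, between the far-left anchor and this one, had single PETs to the genes. It contacted the flanking anchor with 1 PET in each table, the DLX6-side anchor with 1 in shBORIS and 0 in shLUC, and the middle anchor with 0 in shBORIS and 1 in shLUC. Its contact with 96338367-96339576 had 0 PETs in shBORIS and 2 in shLUC. The anchor at 96225039-96226298 reached the flanking anchor with 2 PETs in shBORIS and 0 in shLUC.

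Between the 3 anchors over the genes there were 9 PETs in shBORIS and 1 in shLUC, and most of them lay on 1 pair. The middle and DLX5-side anchors, 7.62 kb apart, were joined by 7 PETs in shBORIS and 0 in shLUC. If shLUC is set to the floor of 3 counts, the ratio scaled to intrachromosomal PETs was 2.09. The observed 7 against 0 had an exact lower limit of 1.29, which is not a limit of the ratio at the floor. The DLX5-side and flanking anchors had 5 PETs in shBORIS and 3 in shLUC, the 1 interaction of the window called in both groups. The middle and flanking anchors had 0 PETs in shBORIS and 2 in shLUC. The DLX6-side anchor had 1 PET to the middle anchor in each table, and 1 PET to the DLX5-side anchor in shBORIS and 0 in shLUC. With the flanking anchor included, the 4 anchors shared 14 PETs in shBORIS against 7 in shLUC, with a scaled ratio of 1.79 (exact 95% Clopper-Pearson interval 0.677 to 5.25). Pairs that close are joined often throughout the genome, and 5.90 PETs were expected in shBORIS and 4.72 in shLUC. Observed over expected was 2.37 in shBORIS (1.30 to 3.98) and 1.48 in shLUC (0.596 to 3.06). For the middle and DLX5-side pair 0.827 PETs were expected in shBORIS and 0.619 in shLUC. Its 0 PETs in shLUC are therefore also near what the mean pair would give.

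The anchors differed in how connected they were inside the window. Over both tables the flanking anchor had the most PETs, with 13 on 6 partners in shBORIS and 17 PETs on 8 partners in shLUC. The DLX5-side anchor came next, with 16 on 5 partners in shBORIS, where it had the most, and 8 on 4 in shLUC. Then came 96305992-96307021 in the left cluster, with 5 PETs in shBORIS and 14 in shLUC, and the far-left anchor, with 8 in shBORIS and 10 in shLUC. The middle anchor had 8 in each table. The DLX6-side anchor had 4 in shBORIS and 3 in shLUC, the fewest of the 4 at the genes. The anchor at 96043700-96045289 had 5 in shBORIS and 10 in shLUC, and the left-cluster anchors at 96304539-96305512 and 96299306-96300459 had 4 and 3 in shBORIS against 10 each in shLUC. The rightmost anchor had 9 PETs in shBORIS and 2 in shLUC. At 96225039-96226298, which completes the 10 anchors with the most PETs, there were 4 in shBORIS and 5 in shLUC. The lowest sum was 1 PET, at 96156395-96157090.

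**Figure D3:**
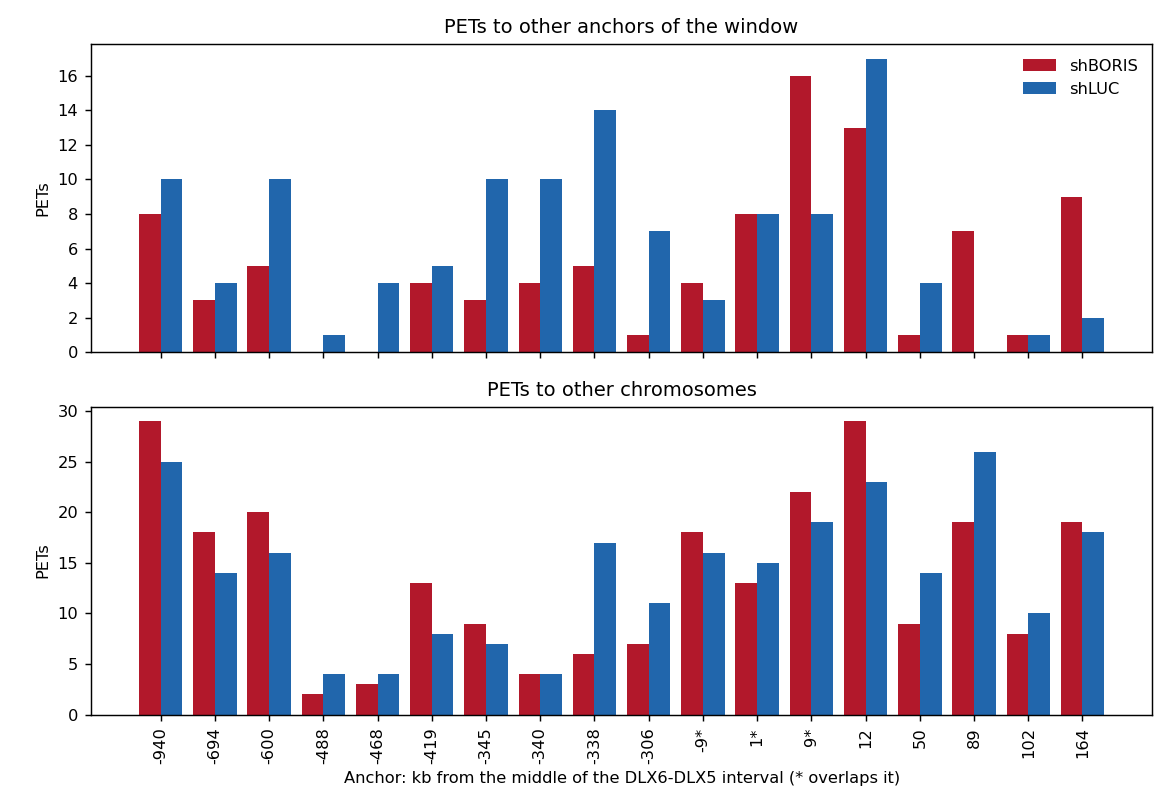
PETs per anchor in shBORIS (left bar) and shLUC (right bar), to other anchors of the window (upper panel) and to other chromosomes (lower panel); anchors run from left to right by kb from the middle of the DLX6-DLX5 interval. The left-cluster anchors have 3 to 5 window PETs in shBORIS at the positions where shLUC has 10 to 14, and the DLX5-side anchor has 16 in shBORIS and 8 in shLUC.

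Over both tables the pair with the most PETs lay in the left cluster, although other pairs had more in shBORIS. The neighbours 96304539-96305512 and 96305992-96307021, 1.48 kb apart, were joined by 2 PETs in shBORIS and 8 in shLUC. This is the 1 pair of the window with enough PETs for the test. Its scaled ratio was 0.224 (0.0232 to 1.12) and did not pass (two-sided Fisher's exact test, Benjamini-Hochberg adjusted p = 0.817 over 3951 pairs). Its PETs over both tables were 1.12 times expected (0.538 to 2.06). The anchors 96299306-96300459 and 96305992-96307021 shared 2 PETs in shBORIS and 4 in shLUC. None of the 3 was joined by more than 1 PET to the anchors at the genes in either table.

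Right of the genes 1 contact with several PETs was listed in shBORIS alone. The anchors 96733495-96734766 and 96808470-96809383, 74.8 kb apart, had 7 PETs in shBORIS and 0 in shLUC. The ratio at the floor of 3 counts was 2.09. The exact lower limit of 1.29 is again that of the observed 7 against 0. At this distance 0.445 PETs were expected in shBORIS and 0.396 in shLUC, so that 0 PETs in shLUC is also what the mean pair would give. To other chromosomes the first of these anchors had 19 PETs in shBORIS and 26 in shLUC, and the second 19 in shBORIS and 18 in shLUC. The 4 anchors on this side had no PET to those left of the genes in shBORIS and 3 in shLUC.

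**Figure D4:**
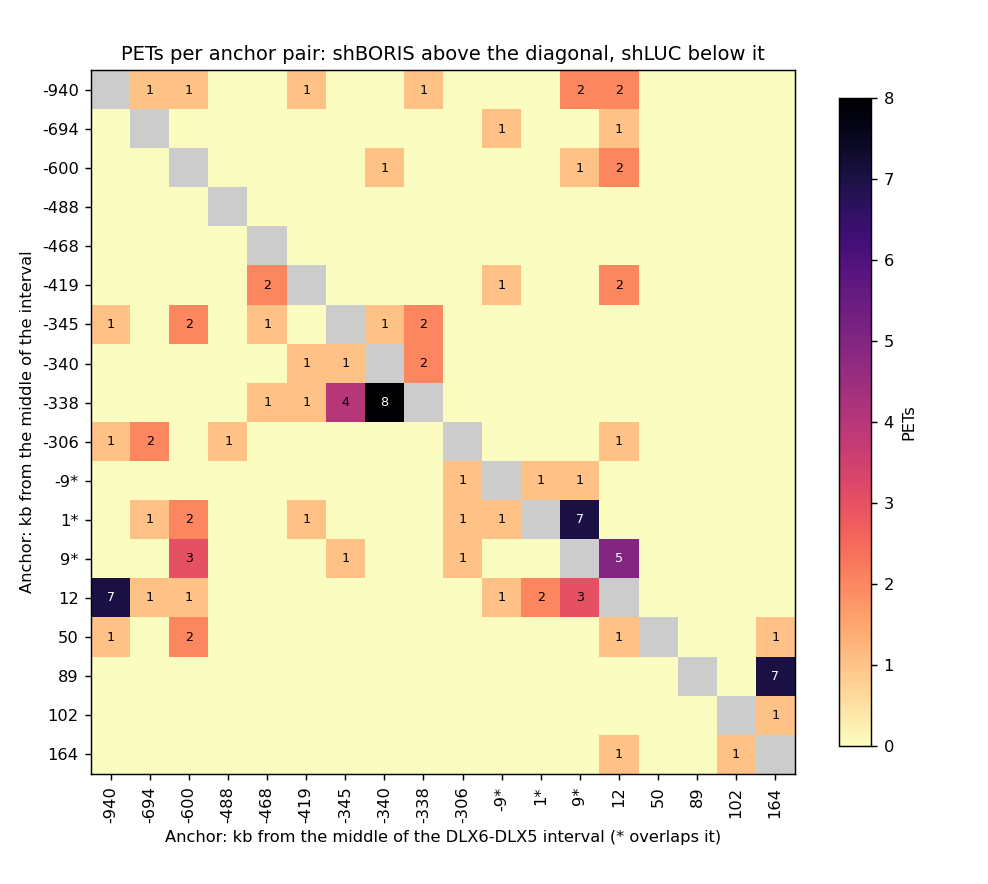
PETs of every anchor pair of the window, with shBORIS above the diagonal and shLUC below it; axes give each anchor by kb from the middle of the DLX6-DLX5 interval, an asterisk marks the anchors over it, and cells without a number have 0 PETs. The cells at the far-left and flanking anchors hold 2 in shBORIS and 7 in shLUC, and the filled cells near the genes in shBORIS are the 7 and 5 PETs between neighbouring anchors.

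Called interactions, with a minimum of 3 PETs and of 0.9 for the Bayes probability, numbered 3 in shBORIS and 5 in shLUC. Over all intrachromosomal pairs they numbered 13111 in shBORIS and 11236 in shLUC. Of the 7 window interactions called in either, 2 were called in shBORIS alone, where the share over all called interactions was 37.8%. In shLUC alone 4 were called, against 27.4% of all, and 1 was called in both, against 34.8% of all. The 4 of shLUC alone were the far-left to flanking contact, the contact of 96043700-96045289 with the DLX5-side anchor and the 2 pairs of the left cluster. All 4 had 1 or 2 PETs in shBORIS. The 2 of shBORIS alone had 0 PETs in shLUC. At a minimum of 5 PETs the order of the groups turned round, with 3 called in shBORIS and 2 in shLUC, none of them shared. The shares over all interactions at that minimum were not computed, so these counts cannot be called particular to the window. With 7 interactions in all, these shares were not tested against those of the genome.

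None of the tests of shBORIS against shLUC passed in the window. Of the pairs, 1 was tested, and it is given above; over all pairs 0.0506% passed as higher in shBORIS and 0% as lower. Unadjusted p-values under 0.05 were found for 5.69% of all pairs and not for this one. Of 12 window anchors, 0 passed Fisher's exact test on their intrachromosomal PETs. The smallest adjusted p was 0.573, and for 2 anchors the unadjusted p was under 0.05. Over all 19623 anchors 0.0153% passed as higher and 0.0051% as lower, and 6.43% were under 0.05 without adjustment. As 1 tile the window had a ratio of 0.699 (0.465 to 1.05). Its adjusted p in Fisher's exact test was 0.517 over 1676 tiles, and the unadjusted p was 0.0781. Of all tiles 0.537% passed as higher and 0.179% as lower, 11.2% were under 0.05 without adjustment, and 16.6% had a lower ratio than this window.

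Among the tested anchors the highest scaled ratios lay at the right edge and at DLX5, and the lowest in the left cluster. The anchor at 96808470-96809383 had 11 intrachromosomal PETs in shBORIS against 4 in shLUC, which gives a ratio of 2.46 (0.730 to 10.6). At 96733495-96734766 there were 8 in shBORIS against 3 in shLUC, with a ratio of 2.39 (0.574 to 14.0). The DLX5-side anchor had 17 in shBORIS against 10 in shLUC, with a ratio of 1.52 (0.659 to 3.72). The lowest ratio, 0.269 (0.0476 to 1.04), was that of 96299306-96300459, with 3 in shBORIS and 10 in shLUC. At 96305992-96307021 there were 6 in shBORIS against 17 in shLUC, with a ratio of 0.316 (0.102 to 0.841), and its interchromosomal PETs, 6 in shBORIS and 17 in shLUC, moved with them. Its neighbour at 96304539-96305512 had 4 in shBORIS against 10 in shLUC, with a ratio of 0.359 (0.0821 to 1.24), with 4 interchromosomal PETs in each table. Over the 12 anchors the median ratio was 0.697, beside 1.01 over all anchors tested.

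Summed by position, contacts left of the genes and contacts at or right of them had ratios on either side of 1. These groups were drawn after the values had been seen and are given without a test. Pairs with both ends left of the genes had 10 PETs in shBORIS against 26 in shLUC, with a scaled ratio of 0.345 (0.148 to 0.739). Pairs from the left to the genes or beyond had 13 in shBORIS against 23 in shLUC, with a ratio of 0.507 (0.236 to 1.04). Pairs with both ends at the genes or to their right had 23 in shBORIS against 10 in shLUC, with a ratio of 2.06 (0.944 to 4.85). That last ratio rests on the 2 pairs with 7 PETs in shBORIS and 0 in shLUC: without them the sums were 9 in shBORIS and 10 in shLUC, and the ratio 0.807 (0.290 to 2.21). Interchromosomal PETs summed over the same groups of anchors did not split this way. They numbered 111 in shBORIS and 110 in shLUC for the 10 anchors on the left. For the 4 at the genes there were 82 in shBORIS and 73 in shLUC, and for the 4 on the right 55 in shBORIS and 68 in shLUC. The sum on the left joins unlike anchors. The far-left anchor had 29 interchromosomal PETs in shBORIS and 25 in shLUC, and 96305992-96307021 had 6 and 17. The latter also had 5 window PETs in shBORIS and 14 in shLUC. Whether coverage accounts for the ratio on the left was not tested. All intrachromosomal PETs of the 3 anchors over the interval came to 24 in shBORIS against 21 in shLUC, with a ratio of 1.02 (0.546 to 1.93).

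The number of PETs that cross each gap between neighbouring anchors describes the same contacts along the window. Over the wide gap before the DLX6-side anchor, pairs under 1 Mb crossed with 13 PETs in shBORIS and 23 in shLUC. The largest number of crossings was 20 in shBORIS, between the middle and DLX5-side anchors, and 38 in shLUC, inside the left cluster. Right of the flanking anchor there were 1 in shBORIS and 5 in shLUC. At the next gap, after the anchor at 96693983-96695040, they were 2 in shBORIS and 1 in shLUC. Before the rightmost anchor they were 11 in shBORIS and 3 in shLUC. At the outer edges, 3 PETs in shBORIS and 1 in shLUC crossed on each side.

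**Figure D5:**
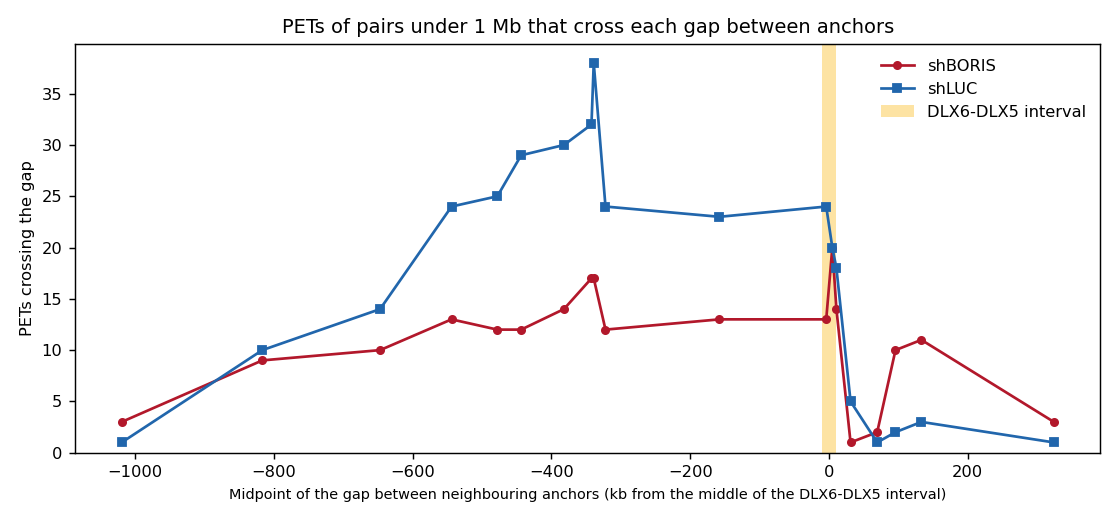
PETs of pairs under 1 Mb that cross the midpoint of each gap between neighbouring anchors, against kb from the middle of the DLX6-DLX5 interval (shaded), for shBORIS (circles) and shLUC (squares). Between the left cluster and the genes shLUC stands at 23 or 24 and shBORIS at 12 or 13, shBORIS has 1 and shLUC 5 in the gap right of the flanking anchor, and the gaps beside the rightmost and its left neighbour have 11 and 10 in shBORIS and 3 and 2 in shLUC.

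By span, the scaled ratio inside the window was 0.896 (0.449 to 1.79) under 20 kb and 1.02 (0.325 to 3.32) at 20 to 100 kb. It was 0.552 (0.198 to 1.44) at 100 to 500 kb and 0.493 (0.213 to 1.08) above 500 kb. All 4 intervals included 1. Over all intrachromosomal pairs the ratios of these classes were 1.08, 1.03, 0.981 and 0.909, each with an interval of counting error that left out 1, and the last 2 classes were below 1 in the window as in the genome.

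Beyond the window the anchors had few recurrent partners. With partners outside it but under 2 Mb away there were 10 PETs in shBORIS and 6 in shLUC on 13 pairs, a scaled ratio of 1.49 (0.492 to 5.001). The nearest anchor outside on the left, 95545534-95546828, contacted the flanking anchor across 1111 kb with 1 PET in each table. It contacted the far-left anchor with 2 PETs in shBORIS and 0 in shLUC, and 96693983-96695040 with 0 in shBORIS and 2 in shLUC. The nearest one outside on the right, 97128321-97129164, had 0 PETs to the anchors of the window in either table. The far-left and rightmost anchors, just inside the edges, had 8 and 9 window PETs in shBORIS and 10 and 2 in shLUC.

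Partners on chromosome 7 at 2 Mb or more gave 13 PETs in shBORIS and 25 in shLUC, all single, a ratio of 0.466 (0.219 to 0.946) where all such pairs of the genome had 0.886. Interchromosomal PETs numbered 248 in shBORIS and 251 in shLUC on 497 pairs, a ratio of 0.995 (0.831 to 1.19). Of these pairs 495 had 1 PET, and 0 were listed in both tables. Over all chromosomes 378290 pairs of any kind were listed in shBORIS, 374437 in shLUC and 720049 in either. Most pairs were thus in 1 table only. The share of all interchromosomal pairs listed in both was not computed. The remaining 2 interchromosomal pairs of the window had 2 PETs each in shLUC and 0 in shBORIS. They joined the flanking anchor to 108324226-108326540 on chromosome 1, and 95950241-95951998 to 68851232-68852277 on chromosome 14.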

How the data were processed

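SMC1 ChIA-PET was done in TAE684-resistant Kelly cells, with 2 libraries each for shBORIS and shLUC. cutadapt 1.8, Bowtie and the build hg19 are listed per the submitters' processing notes, without their roles. The program that defined anchors and scored pairs is not given in the sources used here. For each group 1 table was deposited by the authors, named by both libraries, which were therefore read as pooled. The labels do not say whether they came from separate cultures. The deposited PET count is an unnormalized count per anchor pair. The hypergeometric p-value was computed by the authors and was not used. The Bayes probability, per the file headers, is a fraction from 0 to 1. The shBORIS table lacks a header line, so the 9 column names of shLUC were taken for it. Starts were read as counted from 0 and are printed 1 higher.

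Scaled ratios are shBORIS over shLUC, with PETs first divided by the table's intrachromosomal total (interchromosomal PETs by their own total). Pairs, anchors and tiles of 1.2 Mb with at least 10 summed PETs were compared by two-sided Fisher's exact test against the remaining intrachromosomal PETs, with Benjamini-Hochberg adjustment over all of them and a threshold of 0.05. Expected PETs are the mean per possible anchor pair of all chromosomes in distance classes, 5 to each power of 10. Intervals are exact 95% Clopper-Pearson for ratios and Poisson for observed over expected. They cover only counting error, because each table pools its libraries. PCR copies are not independent molecules, and whether any remain was not examined. The floor of 3 counts carries no error and only gives a ratio where a table has no PET. Regions named were the anchors over the genes and their strongest contacts, the 10 pairs and 10 anchors with the most PETs, the 3 highest and 3 lowest tested anchors, and those at the edges; further ones were chosen after their values were seen. The window and these rules were chosen with earlier results of these data known. DLX5 and DLX6 protein sequences and gene positions in hg19 were not used here. Python 3.11.15, SciPy 1.17.1, pandas 2.3.3 and Matplotlib 3.10.9 were used.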

Additional observations from a re-analysis of the deposited data

How the results depend on the processing

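Of 43 alternative values, 33 stayed inside the main interval, within 1.5 times the main count or on the same side of the threshold, and 10 moved. Of these, 9 are counts of called interactions. The other is the ratio of pairs with both ends at the genes or to their right, which was 0.807 without the 2 pairs of 7 PETs listed in shBORIS alone, an alternative chosen after seeing the data. With at least 2 PETs for a call there were 6 in shBORIS and 8 in shLUC, 2 of them shared and 4 of shBORIS alone. With at least 5 PETs there were 3 in shBORIS and 2 in shLUC, 0 shared, 3 of shBORIS alone and 2 of shLUC alone, so that shBORIS had more, where at the minimum of 3 PETs it had 3 and shLUC 5. When any PET in the other group sufficed for sharing, 5 were shared and 0 were of shLUC alone. The shares over all interactions were not computed at these other settings. The scaled ratio of the window ranged from 0.553 to 0.754 over 6 alternatives. In the window made 200 kb narrower on each side it was 0.553, and its interval (0.336 to 0.897) left out 1. The narrower window leaves out the far-left anchor and the anchors from 96733495 rightwards. The far-left anchor had 8 window PETs in shBORIS and 10 in shLUC. With the right anchors goes the pair of 7 PETs in shBORIS and 0 in shLUC. With at least 5 summed PETs per pair, 6 window pairs were tested by Fisher's exact test and 0 passed. The smallest adjusted p was 0.875, and 2 of the 6 were under 0.05 without adjustment. With at least 20 none could be tested. Called pairs at 20 to 100 kb had no PET in shLUC and at 100 to 500 kb there were none, so those ratios were not formed. No paired analysis was possible because the deposited values are sums over both libraries of a group; neither a replicate block nor leaving out a replicate could be tried. Depth left 1 of the 47 window pairs with enough PETs for the pair test, and the smallest change it could detect was not measured.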
